A study of Mus musculus with 18 samples.

Results

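The Batf family of transcription factors consists in the mouse of Batf, Batf2 and Batf3, and its RNA was followed here in cardiac resident macrophages (CRMs) of the CCR2- and CCR2+ subsets. The members were selected on the measured contrasts of high-fat diet (HFD) and of 20 months against control within each subset, and they make up 3 of the 55401 genes in the count table. All contrasts of the members draw on the libraries of that selection and are therefore given as a description with no test. BATF proteins are short basic leucine zipper factors that lack a transactivation domain of their own. They pair with JUN proteins at AP-1 sites, and these dimers recruit IRF4 or IRF8 to composite AP-1 and interferon response elements. BATF is best known from T helper, B cell and CD8 T cell differentiation, BATF2 is an interferon-inducible member studied in activated macrophages, and BATF3 is required for conventional type 1 dendritic cells (cDC1).

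The CRMs were sorted by flow cytometry on CD11b, CX3CR1 and CCR2, with left ventricles of C57BL/6J females as the stated source for the young and the aged mice. Control mice were 3 months old and aged mice 20 months old, while age, sex and diet length of the HFD mice are not given in the sources used here. No transgene, knockout or other agent is named for any group. Each of the 6 groups (control, HFD and aged, in CCR2- and in CCR2+) had 3 bulk libraries made with a SMART-Seq v4 kit for ultra-low input. The study ties marker levels of the sorted young and aged CRMs to separate mice. For the HFD libraries nothing says so, and p-values in any group measure only the spread between libraries.

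Total counts ran from 39753911 to 56541280 per library, so that 3 counts stood for 0.0374 to 0.154 CPM (counts scaled to a common library size, here by TMM throughout). These limits cover counting error only. The summed level of 10 macrophage markers was 8086 to 32608 CPM in the 18 libraries. It was 8086 to 12355 CPM in aged CCR2+ and 11048 to 32608 CPM in control CCR2+. The 6 markers of conventional type 2 dendritic cells summed to 374 to 4989 CPM. In CCR2+ these sums were 889 to 4989 CPM in controls (median 4379), 2410 to 3155 in HFD and 469 to 1487 in aged libraries. In CCR2- they were 933 to 1369 CPM in controls, 911 to 1322 in HFD and 374 to 1072 in aged libraries. Sums reached 750 CPM for neutrophil, 594 for fibroblast, 420 for plasmacytoid dendritic cell and 364 for endothelial markers. They reached 151 CPM for B and plasma cell, 141 for cardiomyocyte and 1.38 for 5 mast cell and basophil markers. Library 3 lay between libraries 1 and 2 for 99.0% of 4486 genes in control CCR2- and for 98.5% of 4737 genes in aged CCR2- (those with a 2-fold or larger gap between these 2 libraries), against 3.14% to 58.5% for the other libraries, and results are also given without both. Whether library 3 of control and aged CCR2- came from a separate mouse was not tested, so n = 3 there counts libraries. In control CCR2+, 35.4%, 37.1% and 30.0% of 4591 genes stood under 10% of their mean over the other 15 libraries in libraries 1, 2 and 3. Of these genes, 571 (12.4%) did so in all 3, Batf and Batf3 among them, and the share in control CCR2- was 14.1% of 4918 genes. The share was smaller in the other groups, at 2.38% in HFD CCR2-, 5.11% in HFD CCR2+, 4.8% in aged CCR2- and 3.9% in aged CCR2+. In bulk samples fewer cells of a type and less RNA per cell cannot be told apart.

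Batf (ENSMUSG00000034266) lies on the plus strand at chr12:85686669-85709087 of GRCm38, Batf2 (ENSMUSG00000039699) at chr19:6140983-6172476 and Batf3 (ENSMUSG00000026630) at chr1:191097847-191108945. No other annotated gene overlaps Batf or Batf3. At its start, Batf2 overlaps the 5′ part of Arl2 on the opposite strand over 566 bases. It also holds the pseudogene Gm5510 and a 5S rRNA gene copy. Because strand use in the counting is not stated, reads of Batf2 and Arl2 cannot be told apart in the overlap with Arl2. The upstream stretches of Batf and Batf3, both lowest in control CCR2+, are shown from RefSeq promoters of GRCm38.p6, cut before the first base of the protein-coding transcripts in GENCODE M21. The Batf3 stretch lies inside the annotated gene span, since noncoding transcripts of Batf3 start upstream and their first exon overlaps its 5′ part. Capitals mark matches to any of 5 motifs searched on both strands, namely AP-1 (TGANTCA), CRE (TGACGTCA), the ISRE core (GAAANNGAAA), GAS (TTCNNNGAA) and the E-box (CACGTG).
Batf, chr12:85686470-85686668, plus strand: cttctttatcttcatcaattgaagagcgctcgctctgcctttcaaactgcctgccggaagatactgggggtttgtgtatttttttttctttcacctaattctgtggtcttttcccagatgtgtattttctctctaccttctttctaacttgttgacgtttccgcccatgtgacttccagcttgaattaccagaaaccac
Batf3, chr1:191098164-191098324, plus strand: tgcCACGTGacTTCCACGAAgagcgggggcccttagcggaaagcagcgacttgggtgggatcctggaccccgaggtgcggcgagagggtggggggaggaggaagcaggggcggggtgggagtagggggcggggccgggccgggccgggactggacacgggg
The Batf window of 300 bases held none of the 5 motifs, and that of Batf3 held 1 E-box and 1 GAS match. Among 32851 promoters of the same length, 7.15% held the E-box, 8.30% GAS, 7.81% AP-1, 3.44% the ISRE core and 1.79% CRE. The windows differed in base composition. GC content was 49.7% for Batf, above 38.1% of promoters, and 75.7% for Batf3, above 96.7% of promoters.

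Batf was the most abundant member, and its level was lowest in control CCR2+. In these CRMs it stood at 4.69, 4.87 and 7.54 CPM in libraries 1, 2 and 3 (mean 5.70 ± 1.60, SD, n = 3), which rested on 182, 180 and 147 raw counts and was far above the counting limit. In HFD CCR2+ it stood at 246, 150 and 159 CPM (185 ± 53.1) and in aged CCR2+ at 110, 68.3 and 134 CPM (104 ± 33.2). All 6 of these libraries were thus above all 3 control CCR2+ libraries, with means 32.4-fold higher on the diet and 18.2-fold higher with age. The fitted log2 fold changes were 5.02 (SE 0.66) and 4.19 (SE 0.64), and both share the same 3 control libraries. Across all genes, 0.123% were called (edgeR, with an adjusted p under 0.05 and more than 2 in either direction on the log2 scale) for HFD against control in CCR2+. For aged against control in CCR2+, edgeR called 0% of 15456 genes, with 3743 genes at an unadjusted p under 0.05 beyond that fold and 2921 called by DESeq2.

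In the CCR2- subset Batf was high in control CRMs, with 201, 197 and 142 CPM (180 ± 33.3). The HFD CCR2- libraries held 150, 123 and 157 CPM (143 ± 17.8) and overlapped the controls, with a log2 fold change of -0.33 (SE 0.56). The aged CCR2- libraries held 84.8, 60.3 and 50.5 CPM (65.2 ± 17.7). All 3 aged libraries lay below all 3 controls, by 2.76-fold on means and a log2 fold change of -1.46 (SE 0.57), or -1.45 without library 3 of both groups. In these CCR2- comparisons edgeR called 0% of genes for HFD and 0% for age, with 2839 and 3235 genes at an unadjusted p under 0.05 beyond the same fold and 1859 and 2775 called by DESeq2.

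**Figure D1:**
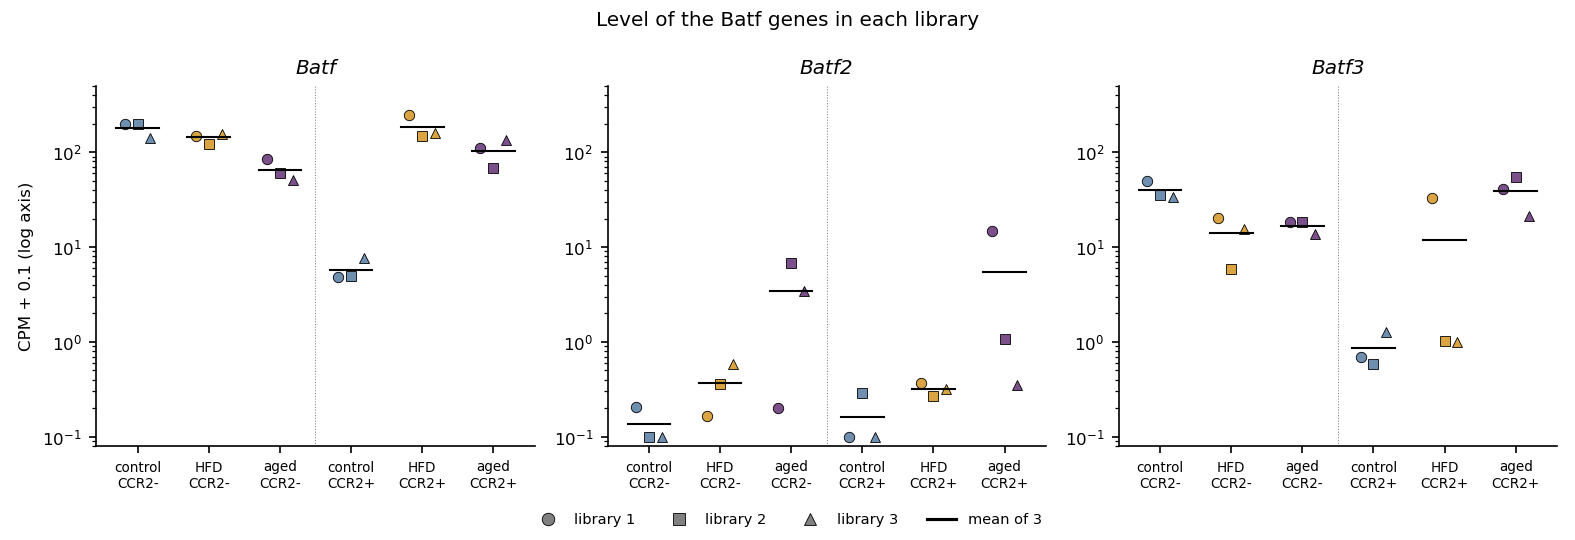
Level of Batf, Batf2 and Batf3 in each of the 18 libraries, as CPM + 0.1 on a log axis, with 1 symbol per library and a line at the mean of 3. Batf sits between 4.69 and 7.54 CPM in control CCR2+ and between 50.5 and 246 CPM in the other 15 libraries, Batf3 is also low in 2 HFD CCR2+ libraries, and Batf2 exceeds 1 CPM in 3 aged libraries only.

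The order of group means for Batf was HFD CCR2+, control CCR2-, HFD CCR2-, aged CCR2+, aged CCR2- and control CCR2+. Each neighbouring pair overlapped in its libraries except the last, where 50.5 CPM was the lowest aged CCR2- and 7.54 CPM the highest control CCR2+ value. Batf belonged to the 119 of 8799 genes (mean of at least 5 CPM) for which all 3 control CCR2+ libraries were below all 15 others, a share of 1.35%. Control CCR2- CRMs exceeded control CCR2+ CRMs by 31.6-fold on means (log2 fold change of CCR2+ against CCR2- -4.98, SE 0.66), with no test. For this subset contrast 0.673% of genes were called, 47 higher and 57 lower in CCR2+ with TMM scaling, and 44 higher and 214 lower when libraries were scaled by total counts alone.

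Outside the controls, the Batf libraries of the subsets overlapped, although with total counts alone all aged CCR2+ libraries exceeded all aged CCR2- libraries. The log2 fold change of CCR2+ against CCR2- was 0.37 (SE 0.56) in HFD CRMs and 0.67 (SE 0.56) in aged CRMs. The share of all genes called was 0.0129% in HFD, and 0% in aged CRMs, where edgeR left 2145 genes at an unadjusted p under 0.05 beyond the fold and DESeq2 called 1154.

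Batf3, the cDC1 factor, was also lowest in control CCR2+, but followed Batf only in part. Control CCR2+ libraries held 0.592, 0.487 and 1.18 CPM (0.753 ± 0.374, n = 3), from 23, 18 and 23 raw counts. Aged CCR2+ libraries held 40.7, 55.2 and 21.3 CPM (39.1 ± 17.0), all above the controls, with means 51.9-fold higher and a log2 fold change of 5.70 (SE 1.44). HFD CCR2+ was split. Library 1 stood at 33.2 CPM, whereas libraries 2 and 3 stood at 0.934 and 0.898 CPM, inside the control range, although with scaling by total counts alone all 3 HFD libraries exceeded the controls. The log2 fold change of 3.96 (SE 1.32) on the diet therefore rested on a single library and was 0.019 without it, while that of Batf without the same library was 4.52.

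In CCR2- CRMs, Batf3 stood at 50.2, 35.1 and 33.8 CPM in controls (39.7 ± 9.09), at 20.4, 5.76 and 15.3 CPM on the diet (13.8 ± 7.41) and at 18.1, 18.1 and 13.7 CPM with age (16.6 ± 2.55). All HFD and all aged libraries were below all controls. Means were 2.88-fold and 2.38-fold lower, with log2 fold changes of -1.52 (SE 1.20) and -1.25 (SE 1.19), or -1.63 and -1.23 without library 3 of control and aged CCR2-. Aged libraries thus lay below controls in CCR2- and above them in CCR2+ for Batf as for Batf3. The share of all genes whose libraries separate between a pair of groups was not counted, here or for other pairs. The order of Batf3 means was control CCR2-, aged CCR2+, aged CCR2-, HFD CCR2-, HFD CCR2+ and control CCR2+, and of the neighbours only aged CCR2+ and aged CCR2- had no overlap.

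Between subsets, the control contrast of Batf3 was -5.72 on the log2 scale (SE 1.44, no test), with a 52.7-fold higher mean in CCR2-. In HFD CRMs the difference was -0.24 (SE 1.17), and it was -3.93 without HFD CCR2+ library 1. In aged CRMs all 3 CCR2+ libraries exceeded all 3 CCR2- libraries, with a difference of 1.23 (SE 1.19).

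Batf2, the interferon-inducible member, was close to the counting limit outside the aged groups. Its raw counts were 5, 0 and 0 in control CCR2-, 0, 7 and 0 in control CCR2+, 4, 17 and 25 in HFD CCR2- and 13, 9 and 9 in HFD CCR2+, none above 0.488 CPM. In aged CCR2- the libraries held 0.0998, 6.68 and 3.36 CPM (5, 447 and 270 counts), with library 3 again between the other 2. In aged CCR2+ they held 14.8, 0.978 and 0.248 CPM (858, 57 and 12 counts). Batf2 passed the expression filter over all libraries, and also when only the HFD libraries were compared. Its aged group means of 3.38 CPM in CCR2- and 5.35 CPM in CCR2+ rested on 2 libraries and on 1. The fitted log2 fold changes of 6.48 (SE 2.37) in CCR2- and 6.30 (SE 2.33) in CCR2+ are not bounds. Without aged CCR2+ library 1 the latter was 3.18. With HFD the values were 2.85 (SE 2.05) and 1.70 (SE 1.97) on a few reads per library. The subset difference was -0.31 (SE 1.85) in HFD CRMs and 0.66 (SE 1.83) in aged CRMs.

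**Figure D2:**
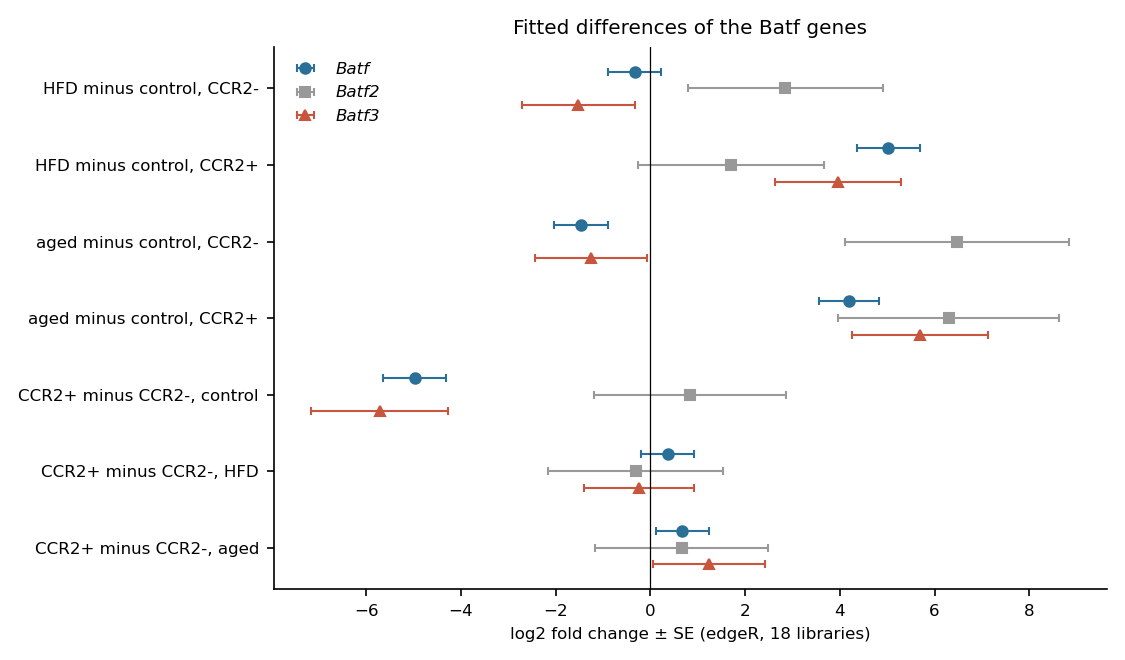
Fitted log2 fold changes of Batf, Batf2 and Batf3 with their standard errors (edgeR, 18 libraries) in 7 comparisons, where positive values are higher in the first group named. Batf and Batf3 lie right of 0 in both CCR2+ contrasts against control, left of 0 in both CCR2- contrasts and in the control subset contrast, and within 1.23 of 0 in the HFD and aged subset contrasts.

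Per kilobase of exon, Batf reached 128 ± 23.7 CPM in control CCR2- and 4.05 ± 1.14 in control CCR2+, against 24.8 ± 5.69 and 0.472 ± 0.234 for Batf3. In aged CCR2+ the levels per kilobase were 73.9 ± 23.6 for Batf, 24.5 ± 10.7 for Batf3 and 2.12 for Batf2 (n = 3 each). Batf thus led the family on this scale in each group, at 46.4 ± 12.6 CPM per kilobase even in aged CCR2-. Over the 18 libraries, log2(CPM + 1) correlated at r = 0.632 between Batf and Batf3, at r = 0.304 between Batf2 and Batf3 and at r = 0.0425 between Batf and Batf2, values that describe libraries which share groups and preparation.

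The genes most like each member by the same measure were sought among 8799 genes. For Batf they were Tep1 (telomerase-associated protein, r = 0.938), Susd3 (0.928), Ubxn1 (a p97 cofactor, 0.920), Ufd1 (ubiquitin recognition in protein degradation, 0.917) and Rab4b (a small GTPase of endosomes, 0.916). All 5 were lower in each control CCR2+ library than in any library of the other groups, which choosing genes by correlation with Batf favours. This separation held for 119 of the 8799 genes (1.35%). Tep1 stood at 2.34, 2.41 and 3.59 CPM in control CCR2+ against 22.1 CPM or more elsewhere. For Batf3 they were Elof1 (a transcription elongation factor, 0.943), Gm47283 (0.888), Guk1 (guanylate kinase, 0.885), Twf2 (an actin-binding twinfilin, 0.870) and Pla2g16 (a phospholipase, 0.859). Elof1 shared the HFD CCR2+ split, with 28.7, 3.03 and 2.14 CPM. For Batf2 they were the interferon-inducible Ifi44 (0.857), Pold1 (a DNA polymerase subunit, 0.856), Ifit1bl1 (0.846), D830050J10Rik (0.846) and the class I gene H2-Q4 (0.844). Ifi44 was highest in the same library as Batf2, at 129 CPM in aged CCR2+ library 1, and lowest within that group in library 3, at 0.372 CPM.

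**Figure D3:**
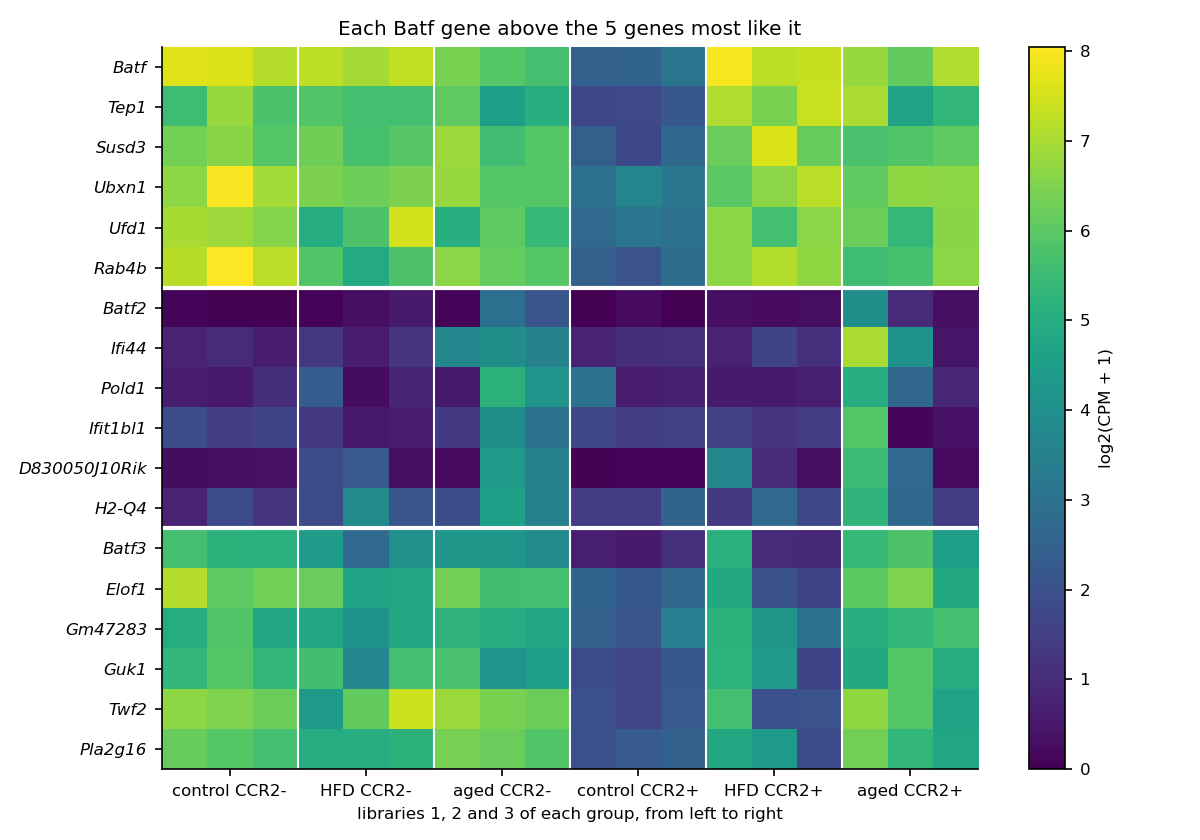
Heat map of log2(CPM + 1) for each Batf gene and the 5 genes with the highest Pearson correlation to it over 18 libraries. Rows around Batf and Batf3 are dark in the 3 control CCR2+ libraries, and those around Batf2 are bright in aged CCR2- libraries 2 and 3 and aged CCR2+ library 1.

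The binding partners of BATF proteins did not show the low level of Batf in control CCR2+. Jund, a JUN protein of many resting cells, held 2773, 2966 and 7391 CPM in control CCR2+, 1292, 2395 and 1243 CPM in control CCR2- and 1522, 812 and 2094 CPM in aged CCR2+. Control CCR2+ was above both other groups in all libraries, but the log2 fold changes of 1.41 against control CCR2- (adjusted p = 0.0925) and of -1.57 for aged against control CCR2+ (adjusted p = 0.0977) did not pass in edgeR, and with scaling by total counts alone the aged and control CCR2+ libraries overlapped. Junb ran from 587 to 3136 CPM over the 18 libraries. Jun held 624, 639 and 2234 CPM in HFD CCR2- and 160, 221 and 365 CPM in HFD CCR2+, with a subset difference of -2.23 that did not pass (adjusted p = 0.345, edgeR). None of the 3 JUN genes was called by edgeR in any of the 7 comparisons. At an unadjusted p under 0.05 beyond the fold, 1 was lower in HFD CCR2+ than in HFD CCR2-, and DESeq2 called 1 lower with age in CCR2+ and 1 higher in control CCR2+ than in control CCR2-. Over all genes the shares were 8.25%, 13.1% and 13.9% in turn.

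The IRF partners differed in abundance. Irf8, which cDC1 and macrophages use, ran from 16.7 to 213 CPM. It held 213, 204 and 168 CPM in aged CCR2- against 33.2, 137 and 61.7 CPM in control CCR2-, a separation with a log2 fold change of 1.34 that did not pass (adjusted p = 0.369, edgeR). Irf4 was under 1 CPM in 14 libraries and high in a few, with 20.9 and 5.04 CPM in control CCR2- libraries 2 and 3, 47.7 CPM in HFD CCR2+ library 3 and 6.48 CPM in aged CCR2+ library 3. No Batf gene was at its highest in any of these 4 libraries.

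Among the genes around the family, 2 were called, and both shared with Batf the low level in control CCR2+ but not the lower level with age in CCR2-. Over all genes, edgeR called 0.123% for HFD in CCR2+ and 0.673% between control subsets. The lists were chosen with earlier results of these data known, so the calls are not independent of that choice. In the list of 15 interferon and STAT inputs, Ifnar2, a chain of the type I interferon receptor, held 4.97, 6.11 and 8.73 CPM in control CCR2+, 159, 176 and 123 CPM in HFD CCR2+ and 250, 155 and 112 CPM in aged CCR2+. Ifnar2 rose in HFD CCR2+ by 4.53 on the log2 scale (SE 0.81, adjusted p = 0.0355, edgeR). Stat3, a transcription factor of IL-6 family signalling, held 14.8, 8.63 and 13.3 CPM in control CCR2+, 57.2, 180 and 403 CPM in HFD CCR2+ and 131, 145 and 85.2 CPM in aged CCR2+. Stat3 rose in HFD CCR2+ by 4.13 (SE 0.76, adjusted p = 0.0355, edgeR). In the controls, which these contrasts share, both were lower in CCR2+ than in CCR2-, with log2 fold changes of -4.24 for Ifnar2 (SE 0.79, adjusted p = 0.0231, edgeR) and -3.78 for Stat3 (SE 0.74, adjusted p = 0.0266, edgeR). With age in CCR2+ the differences of 4.71 and 3.30 did not pass (adjusted p = 0.0661 and 0.0797, edgeR), while DESeq2 called both (adjusted p = 0.000153 and 0.017), as did edgeR with total counts alone (0.00197 and 0.0082), with no filter (0.00498 and 0.0369) and with at least 10 counts in every library (0.00784 and 0.0247). RLE factors added a call of Ifnar2 alone (adjusted p = 0.0468, edgeR). The HFD call of each was lost with RLE factors (adjusted p = 0.0761 for both, edgeR) and without library 3 of control and aged CCR2- (0.172 for Ifnar2 and 0.185 for Stat3). It was also lost with the compared libraries alone (0.277 for both) and with a replicate block (0.0858 for Ifnar2 and 0.0998 for Stat3). RLE factors also ended the calls between control subsets, with adjusted p of 0.0551 for Ifnar2 and 0.0645 for Stat3 (edgeR). So did leaving out library 3 (0.129 and 0.176) and the compared libraries alone (0.165 for both).

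**Figure D4:**
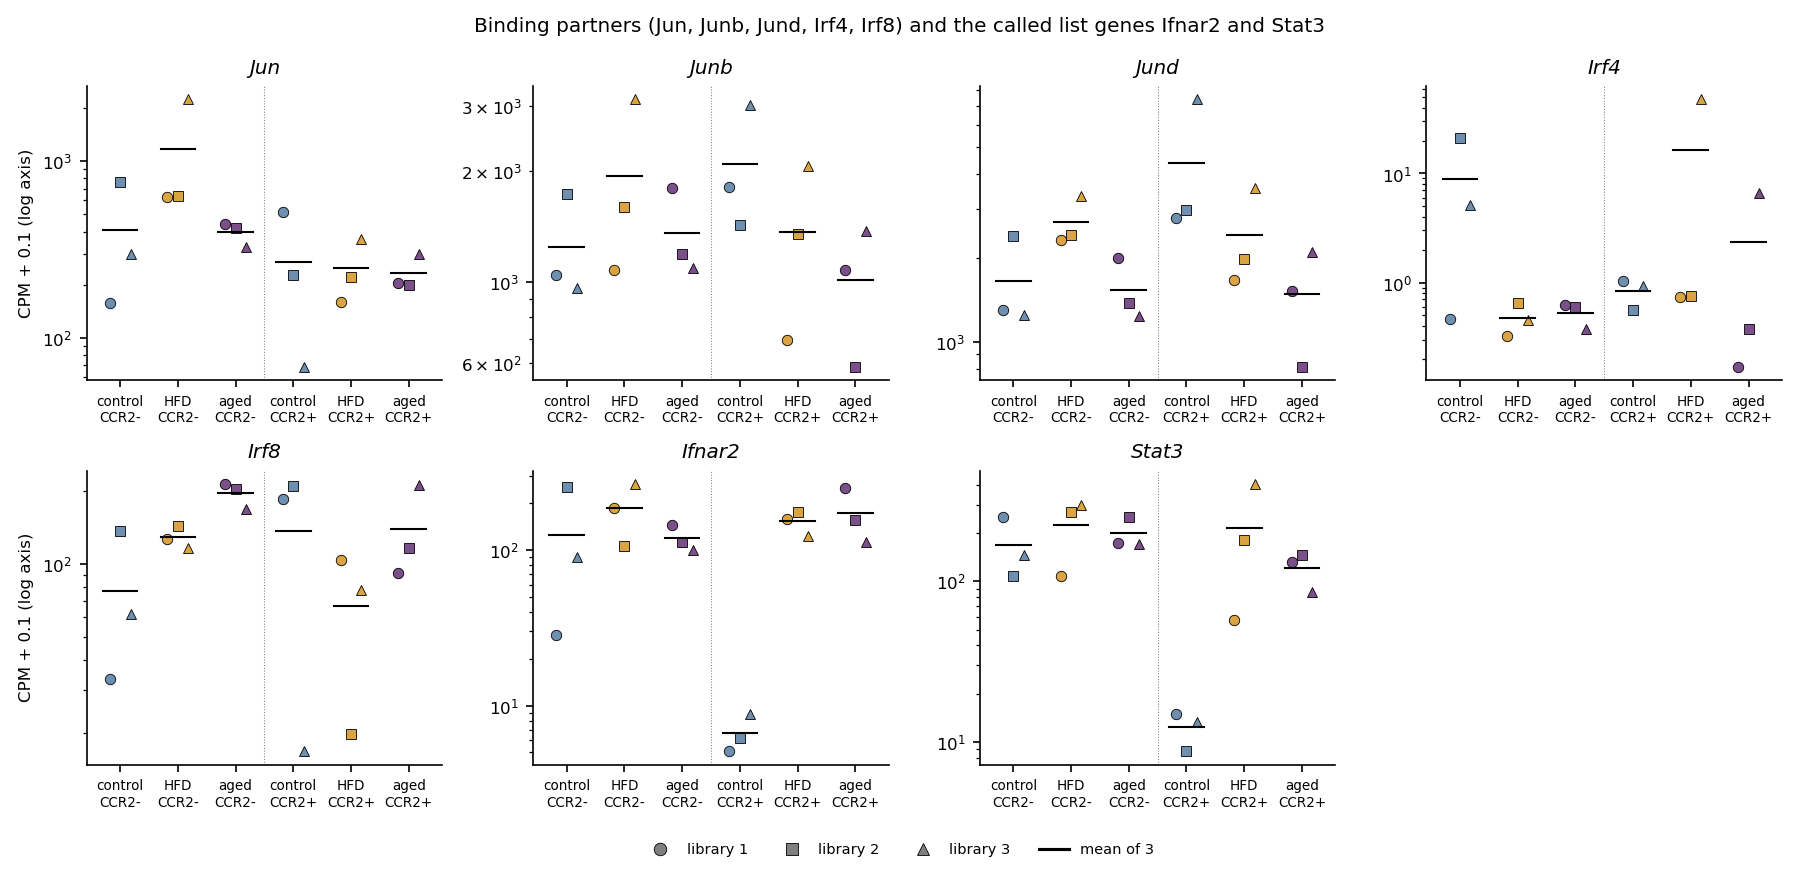
Level of 5 binding partners and of Ifnar2 and Stat3 in each library, as CPM + 0.1 on log axes that differ between panels, with a line at the mean of 3. Ifnar2 and Stat3 are lowest in control CCR2+, at 4.97 to 8.73 and 8.63 to 14.8 CPM, and Irf4 is above 1 CPM in 4 libraries. Jund has its highest mean in control CCR2+, at 2773 to 7391 CPM, and overlaps there with HFD CCR2+.

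Besides Ifnar2 and Stat3, edgeR called no gene of the 7 lists in the 4 condition contrasts and the 3 subset contrasts. The 24 interferon-stimulated genes had a median log2 fold change of 2.10 with age in CCR2-, with 23 higher, against -0.16 over all genes, and of 2.37 in CCR2+, with 19 higher, against 0.00 over all genes. Of these, 8 and 11 were higher at an unadjusted p under 0.05 beyond the fold, where 13.3% and 16.7% of all genes were, and DESeq2 called 6 higher in each subset and 1 lower in CCR2-, where it called 10.3% of all genes higher and 8.97% lower. Leaving out 1 library at a time, the aged median in CCR2+ ran from 0.83, without aged CCR2+ library 1, to 3.66. In CCR2- it ran from 1.79 to 2.28. This age pattern was among the earlier results known when the list was made and is not independent of it. On the diet the list's medians were 0.45 in CCR2- and -0.10 in CCR2+, the latter from -0.97 to 0.67 over 8 other settings. The 9 IRF genes, factors that transmit or restrain interferon responses, had medians of 1.47 for HFD and 1.34 for age in CCR2+, and over 8 other settings the former ran from -0.82 to 1.95. At an unadjusted p under 0.05 beyond the fold, 4 IRF genes were higher and 2 lower on the diet, and 3 higher and 1 lower with age. DESeq2 called 2 IRF genes higher and 2 lower on the diet, and 1 higher and 2 lower with age. The 7 FOS and ATF factors tested, which also dimerize at AP-1 and related sites, had medians of -0.59 (from -1.38 to -0.32 over these settings) and -0.89 (from -1.80 to 0.12), with 1 higher and 1 lower on the diet and 1 lower with age at that unadjusted p. DESeq2 called 2 of these factors lower in each contrast. The 14 inflammatory macrophage genes tested had medians of -0.30 (from -1.09 to 0.24) and -0.92 (from -1.97 to -0.05), with 1 lower with age at that p and 4 lower by DESeq2. The 10 genes of the cDC1 programme had medians of -0.11 (from -0.81 to 0.91) and -0.17 (from -0.99 to 1.44), with 2 and 3 higher at that p and 2 higher by DESeq2 in each contrast. Over all genes, 14.7% were higher and 8.35% lower on the diet in CCR2+ at that p, and 16.7% and 7.51% with age. DESeq2 called 8.14% of all genes higher and 10.6% lower on the diet, and 8.45% higher and 13.1% lower with age.

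**Figure D5:**
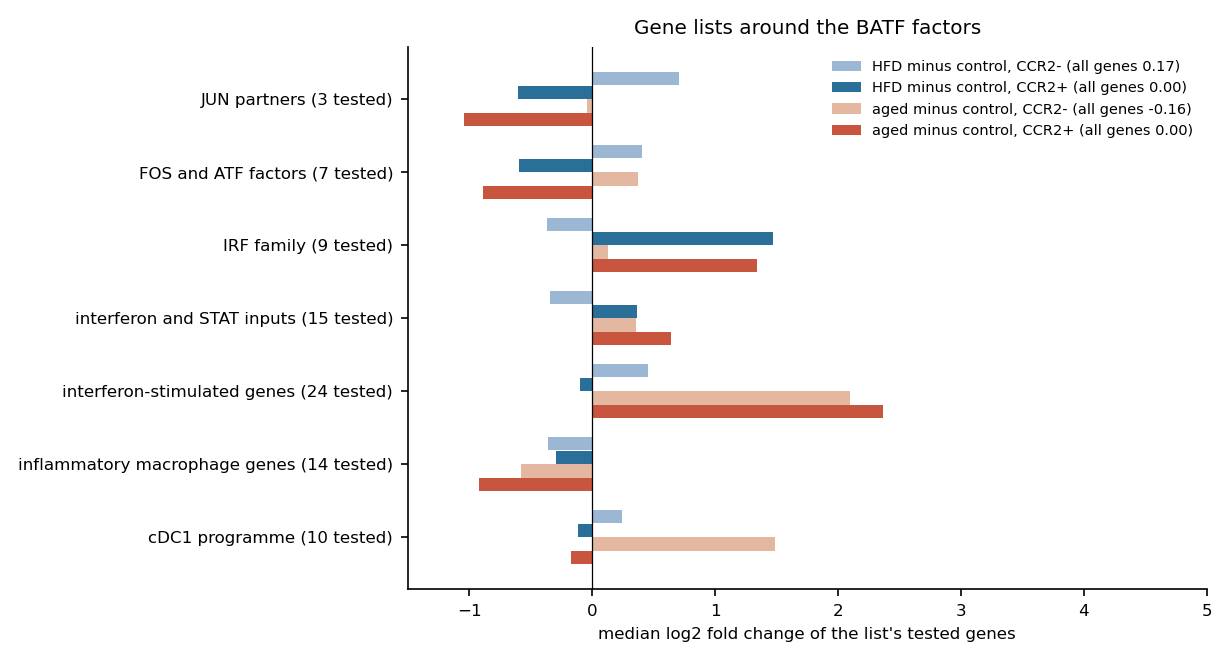
Median log2 fold change of the tested genes of 7 lists for HFD and aged against control in each subset, with the median over all genes in the key. The interferon-stimulated genes stand at 2.10 and 2.37 in the aged contrasts, the latter at 0.83 without aged CCR2+ library 1. The inflammatory macrophage genes lie below 0 in all 4, with the HFD CCR2+ median reaching 0.24 in another setting.

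Markers of cells that also use BATF factors were set beside these levels. The 7 cDC1 markers summed to 6.62 to 97.4 CPM in control CCR2+, 23.2 to 211 CPM in HFD CCR2+, 96.7 to 235 CPM in aged CCR2+ and, in CCR2-, 62.0 to 111 CPM in controls, 5.44 to 47.4 CPM on the diet and 128 to 192 CPM with age. Much of the aged sums came from Cadm1, at 132, 167 and 115 CPM in CCR2- and 53.2, 94.7 and 123 CPM in CCR2+. Flt3 added 14.7, 7.98 and 108 CPM in aged CCR2+ and stayed under 1 CPM in aged CCR2-. Itgae was under 1 CPM in all 18 libraries. Of the defining cDC1 markers, Clec9a was under 1 CPM in 17 libraries and at 38.0 CPM in aged CCR2+ library 2, the library with the highest Batf3, and Xcr1 was highest in control CCR2+ library 1, at 94.5 CPM, where Batf3 was 0.592 CPM. The 10 T and NK cell markers summed to 98.0 to 599 CPM in control CCR2-, 84.0 to 171 CPM in HFD CCR2-, 52.5 to 214 CPM in aged CCR2-, 39.5 to 86.6 CPM in control CCR2+, 34.4 to 45.6 CPM in HFD CCR2+ and 23.9 to 34.0 CPM in aged CCR2+. Of these markers Cd8a was under 1 CPM in every library, Cd3d ran from 10.6 to 42.3 CPM and Nkg7 from 1.03 to 195 CPM. The 6 monocyte markers summed to 554 to 748 CPM in control CCR2-, 183 to 547 CPM in HFD CCR2- and 1321 to 2407 CPM in aged CCR2-, where all aged libraries exceeded all controls. In CCR2+ they summed to 769 to 3358 CPM in controls, 1022 to 3180 CPM on the diet and 1271 to 13711 CPM with age, with the top value in library 1, which also held the most Batf2. The part of these cells in the levels of the Batf genes was not tested.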

How the data were processed

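RNA of sorted CRMs was measured in 18 bulk SMART-Seq libraries, 3 in each of 6 groups read from the sample labels, with controls read as the young mice of 3 months. The authors deposited raw counts for 55401 Ensembl genes, made with Cutadapt for trimming, HISAT2 for mapping and StringTie for assembly, with multi-mapping and strand settings not stated in the sources used here. Symbols (for 55141 genes) and positions were taken from GENCODE M21 (GRCm38), and the study names the reference of its mapping by a version number only, which may be another release. Promoters came from RefSeq (GRCm38.p6), with entries used for Batf and Batf3.

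Counts were fitted with edgeR 4.0.16 in R 4.3.3 as 6 groups in 1 model over 18 libraries (filterByExpr, TMM, quasi-likelihood test, Benjamini-Hochberg adjustment over 15456 genes). All 3 Batf genes passed the filter. A call needed an adjusted p under 0.05 together with a change of more than 2, up or down, on the log2 scale. DESeq2 1.42.0, RLE factors, total counts alone, other filters, replicate blocks, the compared libraries alone and left-out libraries were alternatives, and the fits were checked on simulated data. TMM factors ran from 0.4265 (control CCR2+ library 3) to 1.458, and the common dispersion was 1.48, so the spread between libraries limited precision more than depth did.

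The members, gene lists and marker lists were chosen with earlier results of these data known. Named genes are the 3 members, Jun, Junb, Jund, Irf4 and Irf8, up to 3 called genes per list and comparison by p, and the 5 genes most like each member by Pearson correlation of log2(CPM + 1) over genes averaging 5 CPM or more. Single marker genes were named after their values were seen. For the members, the planned tests between subsets, an exact permutation test among them, were left out because their libraries set the contrasts that selected the members. Figures used matplotlib 3.10.9.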

Additional observations from a re-analysis of the deposited data

Results flagged for a closer look

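With age, Batf and Batf3 lay on opposite sides of control in the subsets. For Batf, every aged library was below all controls in CCR2-, with a log2 fold change of -1.46, and above all controls in CCR2+, with 4.19. For Batf3, the same separation gave -1.25 in CCR2- and 5.70 in CCR2+. The share of all genes that separate in this way was not counted. The difference between subsets was not tested, since these contrasts selected the genes. Libraries of control CCR2+ were low in 12.4% of the genes compared in all 3 at once, and the part of this in the difference was not tested.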

How the results depend on the processing

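The direction of the Batf and Batf3 contrasts against control and of their control subset contrast held in all settings tried, and of the values that 8 or 9 other settings gave for the members 148 stayed within the spread and 41 moved. With RLE factors the log2 fold changes of Batf were -0.69 (HFD) and -1.88 (aged) in CCR2- and 4.17 and 3.30 in CCR2+, with -4.34 between control subsets, and DESeq2 gave -0.67, -1.86, 4.20, 3.34 and -4.36. Scaling by total counts alone gave 5.66 and 5.14 in CCR2+ and -5.64 between control subsets. For Batf3, RLE factors gave -1.66 and 4.70 with age in CCR2- and CCR2+ and -5.04 between control subsets, DESeq2 -1.64, 4.75 and -5.06, total counts alone 6.78 in aged CCR2+ and -6.48 between control subsets, and the compared libraries alone -6.05. RLE factors moved the median of all genes to -0.74 (HFD) and -0.80 (aged) in CCR2+, and total counts alone moved it to 0.43 and 0.88.

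For Batf2, HFD in CCR2- gave 2.65 with RLE factors, 3.04 with no filter, 3.64 with a replicate block and 2.27 without library 3 of control and aged CCR2-. HFD in CCR2+ gave 1.03 with RLE factors, 1.91 with total counts alone, 1.82 with a replicate block and 1.08 with DESeq2. Between control subsets it gave 1.39 with RLE factors, 0.57 with total counts alone, 0.98 with no filter, 1.19 and 0.39 with the replicate blocks by number and by condition and number, 0.26 without library 3 and 1.42 with DESeq2. Between HFD subsets these replicate blocks gave -0.63 and -0.0045, and between aged subsets, where the value was 0.66, they gave -0.05 and -1.62. The block by condition and number gave -2.13 for Batf3 between HFD subsets.

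Numbers of called genes depended on the tool. DESeq2 called 1859, 2618, 2775 and 2921 genes for HFD and aged against control in CCR2-, CCR2+, CCR2- and CCR2+ in turn, and 3461, 843, 1154 and 1397 between control, HFD, aged and pooled subsets. For HFD in CCR2+, where edgeR called 19, RLE factors, the compared libraries alone and leaving out library 3 of both groups each gave 0, total counts alone 183, no filter 453 and at least 10 counts in every library 198. For age in CCR2-, total counts alone gave 17, no filter 26, at least 10 counts 53 and the compared libraries alone 915. For age in CCR2+, RLE factors gave 247, total counts alone 303, no filter 452 and at least 10 counts 185. Between control subsets, where edgeR called 104, total counts alone gave 258, no filter 733, at least 10 counts 851 and both the compared libraries alone and leaving out library 3 gave 0. Between HFD subsets, where edgeR called 2, RLE factors and leaving out library 3 gave 0, no filter 29, at least 10 counts 18 and the compared libraries alone 6. Between aged subsets no filter gave 2. Over pooled subsets, where edgeR called 39 higher and 98 lower in CCR2+ (137), total counts alone gave 213, 27 higher and 186 lower, no filter 452, at least 10 counts 250 and leaving out library 3 gave 13. The cause of these shifts was not tested.

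Same-numbered libraries resembled each other only weakly. Of 21 such pairs, 1 had deviations from the group means that correlated above 0.1 (range -0.0473 to 0.25), namely library 3 of control and aged CCR2-. Of 21 libraries, 9 correlated best with their own number. Some of these pairs crossed conditions and could not share a mouse. Between subsets of 1 condition the values ran from -0.0473 to 0.0977. Such weak values cannot settle whether CCR2+ and CCR2- libraries of 1 number came from the same mouse. With a replicate block, 3 genes were called for HFD in CCR2+, 30 between control subsets, 0 between HFD subsets and 43 over pooled subsets, and with a block by condition and number 2, 0 and 16 for the last 3. The calls of Ifnar2 and Stat3 between control subsets were lost with both blocks (adjusted p = 0.0575 and 0.0576, and 0.21 and 0.102, edgeR).

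Leaving out 1 library at a time, called genes ran from 0 to 1 and 0 to 42 for HFD in CCR2- and CCR2+, from 0 to 32 and 0 to 50 for age, and from 13 to 194, 0 to 7 and 35 to 139 between control, HFD and pooled subsets. Batf ran from 4.52 to 5.34 for HFD in CCR2+, from 3.97 to 4.52 for age in CCR2+ and from -5.37 to -4.80 between control subsets. Batf3 ran from 0.019 to 4.52 for HFD in CCR2+, the low end without HFD CCR2+ library 1, from 5.38 to 6.25 for age in CCR2+, from -6.34 to -5.50 between control subsets, from -3.93 to 0.31 between HFD subsets and from -2.74 to -1.40 over pooled subsets. Batf2 ran from 2.14 to 6.83 and 1.19 to 6.53 for HFD, from 5.53 to 10.46 and 3.18 to 11.13 for age, from -3.99 to 4.82, -0.78 to 0.40 and -2.46 to 1.62 between control, HFD and aged subsets and from -1.21 to 1.72 over pooled subsets. The calls of Ifnar2 and Stat3 for HFD in CCR2+ held in 10 and 9 of 26 settings, with adjusted p from 0.000159 to 0.277 and from 0.000356 to 0.277, and neither reversed.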
